A study of Mus musculus with 8 samples.

Results

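Nrip1, Ncoa1, Ncoa2, Ncoa3 and Ncor1 encode coactivators and corepressors of nuclear receptors, and the accessible chromatin around these 5 genes was described in mouse granulosa cells, which line the ovarian follicle and nurse its oocyte. The 5 genes were picked by name from 21631 protein-coding genes, and every accessible region in a gene body or within 50 kb on either side of it was taken. ATAC-seq, in which the transposase Tn5 cuts and tags DNA where chromatin is open, gave 8 libraries in 4 groups of 2, and each library pooled cells of 2 to 3 mice. All mice were 21 days old and were injected with 5 IU of equine chorionic gonadotropin (eCG or PMSG), a hormone that drives follicle growth. In the LH experiment, on wild-type F1 mice of a CBA x C57BL/6 cross, the groups were titled PMSG (killed 46 h after eCG) and hCG (given 5 IU of human chorionic gonadotropin, a stand-in for the surge of luteinising hormone, at 46 h and killed 6 h later). In the PR experiment the strain was C.129S7(B6)-Pgrtm1Bwo/OmcJ, which carries a targeted allele of Pgr, the progesterone receptor gene, and the wild-type (WT) and PR knockout (KO) groups had both received eCG and then hCG for 6 h.

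The labels disagree in part. The libraries titled hCG are tagged 0 h after hCG and the ones titled PMSG 6 h, while their source names go with the titles, so the titles were followed. The 4 PR libraries are tagged 6 h but have a source name of pre-ovulatory cells, so their state after hCG rests on the tag and the design text. The cells came out of punctured ovaries with no sort named. Of 10 granulosa cell markers, between 8 and 9 had an accessible interval at their promoter or gene end in a given library, Nr5a2 being the gene without one in all 8. Of 5 leukocyte markers 0 to 1 had one, Ptprc, Adgre1, Csf1r and Itgam having none in any library and Cd68 one in both hCG libraries. The part of such cells in the results was not tested. Of 5 oocyte markers Gdf9 alone had one, of 4 endothelial markers Cdh5 and Kdr, and of 3 theca markers 0 to 2 (Insl3 in none). At the lower end of Pgr itself each KO library had 2 intervals with a gap of 272 and 394 bp, where the other 6 libraries had a single interval.

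Nuclear receptors such as those for estrogen and progesterone turn genes on by recruiting coactivators, which bring histone acetyltransferases, and turn genes off through corepressors, which bring histone deacetylases. Ncoa1, Ncoa2 and Ncoa3 are the steroid receptor coactivator family, and Ncoa1 was first isolated as a partner of the progesterone receptor. Ncor1 is the scaffold of a corepressor complex with the deacetylase Hdac3. Nrip1 represses many receptors even when their ligand is bound, and female mice without it do not release oocytes at ovulation.

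An accessible interval is a stretch that the authors' peak caller reported in 1 library. Intervals of the libraries compared that shared at least 1 bp were joined into a region, and a region counts as held by each library with an interval inside it. The fold is the authors' enrichment of a peak over the caller's background. Between libraries it was compared as a percentile within its own list, 100 being the highest fold. Folds printed for single regions are descriptions and are not on a common scale across libraries. Read depth is unknown, since the lists hold no read numbers. List length differed between libraries: a list held 55654 (KO replicate 2) to 84313 (WT replicate 2) intervals, which covered 29.8 to 43.9 Mb. Sensitivity and the state of the cells cannot be told apart as sources of this difference. A lower signal in bulk chromatin can come from fewer cells with the region open or from less opening per cell, and these cannot be told apart. The labels say that replicates were biological, but with 2 a group no exact permutation test of 4 libraries can give a p under 0.333.

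The promoters given in the RefSeq tables (GRCm38.p6) were searched first. Promoter sequences, 250 bases before to 50 after a start, were at hand for Nrip1 and Ncor1 (a pair each) and Ncoa1. The 3 printed here contrast the promoter of Ncor1 that was open with the inner one that was not, and give the Ncoa1 promoter, which had a gap in a KO library. All 3 lie on the minus strand and are printed 5′ to 3′ from 250 bases before the start. Capitals mark matches to GGGCGG (SP factors, either strand) or TGTGGT (RUNX factors).
Ncor1, outer start, chr11:62457283-62457582: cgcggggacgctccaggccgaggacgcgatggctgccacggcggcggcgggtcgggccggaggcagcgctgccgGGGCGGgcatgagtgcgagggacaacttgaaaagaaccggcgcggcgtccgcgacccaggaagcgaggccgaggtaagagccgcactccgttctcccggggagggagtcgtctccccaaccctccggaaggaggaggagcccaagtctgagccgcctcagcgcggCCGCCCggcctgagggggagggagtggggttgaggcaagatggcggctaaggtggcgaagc
Ncor1, inner start, chr11:62438466-62438765: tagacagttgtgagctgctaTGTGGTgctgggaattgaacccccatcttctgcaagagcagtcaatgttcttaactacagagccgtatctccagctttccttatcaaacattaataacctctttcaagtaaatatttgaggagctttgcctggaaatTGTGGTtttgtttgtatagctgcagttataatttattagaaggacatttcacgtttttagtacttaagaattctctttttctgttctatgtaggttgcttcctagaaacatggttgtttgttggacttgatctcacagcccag
Ncoa1, chr12:4477133-4477432: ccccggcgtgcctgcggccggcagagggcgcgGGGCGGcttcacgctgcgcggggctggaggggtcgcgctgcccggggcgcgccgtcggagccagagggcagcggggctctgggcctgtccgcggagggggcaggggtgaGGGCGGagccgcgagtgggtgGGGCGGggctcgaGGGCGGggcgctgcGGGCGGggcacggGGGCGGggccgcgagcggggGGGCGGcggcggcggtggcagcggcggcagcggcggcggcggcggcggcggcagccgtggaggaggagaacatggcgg
The outer Ncor1 promoter has 72.3% G and C, 36 CpG and 2 GGGCGG matches, and was fully covered by intervals in all 8 libraries. The inner Ncor1 promoter, 38.3% G and C with 2 CpG and 2 TGTGGT matches, had no interval in any library. The Ncoa1 promoter is the richest of the set in CpG, with 84.7% G and C, 49 CpG and 7 GGGCGG matches.

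Both Nrip1 promoters were open in all 8 libraries although they differ in base composition. The inner one (chr16:76373000-76373299) has 73.3% G and C, 40 CpG and 2 overlapping GGGCGG matches, and the outer one (chr16:76373778-76374077) has 52.7% G and C, 6 CpG and no match. Between 70.7% and 98.3% of the outer one was covered, against all of the inner one. The other motifs searched on both strands, TGACGTCA (cyclic AMP response element), TGANTCA (AP-1), CAAGGTCA (NR5A and ERR), ACANNNTGT (the core of a steroid receptor element of the PGR type) and AGATAA, which factors of the GATA family bind, had no match in these 5 windows. Of 32851 promoters of this length in the table, 35.7% hold GGGCGG, 16.8% TGTGGT, 11.2% AGATAA, 7.81% TGANTCA, 6.85% ACANNNTGT, 1.79% TGACGTCA and 1.56% CAAGGTCA. A match is a description of the letters and not a bound site. Of the 32619 promoters on chromosomes 1 to 19 and X, 41.7% were open in all 8 libraries, with a median of 22 CpG, and 52.05% in none, with a median of 3.

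A region over the start was held by all 8 libraries for Nrip1, Ncoa1 and Ncor1, whose starts came from the promoter table. For Ncoa2 and Ncoa3 the tables used give no strand, so the start was taken as the end of the gene body that all 8 libraries held, and at Ncoa3, where both ends were held, as the end with the higher percentile. That those starts were open therefore follows from the choice, and their values are a description. The lowest, median and highest percentiles over the 8 libraries were 32.5, 48.0 and 55.8 for Nrip1, 43.6, 57.3 and 66.4 for Ncoa1, and 53.9, 65.5 and 73.8 for Ncor1. These 3 starts lay near the middle of the lists, and neighbours in the order Ncor1, Ncoa1 and Nrip1 overlapped in range. At the end taken for Ncoa2 the values were 48.1, 54.9 and 67.2, and at that for Ncoa3 92.1, 95.8 and 98.2. The other end of Ncoa3, which lies next to Sulf2, stood at 5.85 to 46.0. In width the Ncoa2 start was the broadest by median, with 2370 bp covered, and the Ncoa3 start the narrowest, with 1236.5 bp.

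The interval at the Ncoa1 start was broken in both KO libraries and whole in the other 6. The gap was 191 bp at chr12:4476740-4476930 in KO replicate 1 and 142 bp at chr12:4477152-4477293 in KO replicate 2. The gaps do not overlap, and the one in KO replicate 2 falls inside the promoter printed above, of which 52.7% was covered there. It takes in the start itself (chr12:4477206), so KO replicate 2 held the start region only through the intervals on either side of the gap. The Ncor1 start, which also covers an end of the neighbouring gene Pigl, was broken in hCG replicate 2 and both PMSG libraries, by 217, 449 and 471 bp. How often start regions over the genome are broken in both libraries of a group was not counted. The cause of the gaps was not tested.

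Away from the starts the 5 windows were full of regions. Over all 8 libraries they held 124 regions, of which 71 lay in gene bodies, 21 upstream and 32 downstream. Every library held 40 of them, or 32.3%, against 37.9% of the 98245 regions in the genome. Ncoa3, the smallest gene body at 80.6 kb, had 12 such regions of 23, Ncoa1 9 of 30, Ncoa2 8 of 31, Ncor1 6 of 18 and Nrip1 5 of 22. The gene bodies span chr16:76287403-76373827 (Nrip1), chr12:4247362-4477206 (Ncoa1), chr1:13139105-13374227 (Ncoa2), chr2:165992637-166073242 (Ncoa3) and chr11:62315663-62457414 (Ncor1), and Nrip1 alone had no other protein-coding gene in its window. The outermost region inside a window lay 49.4 kb from the gene body (Ncoa2), and the nearest one left out lay 51.8 kb away (Ncoa3).

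**Figure D1:**
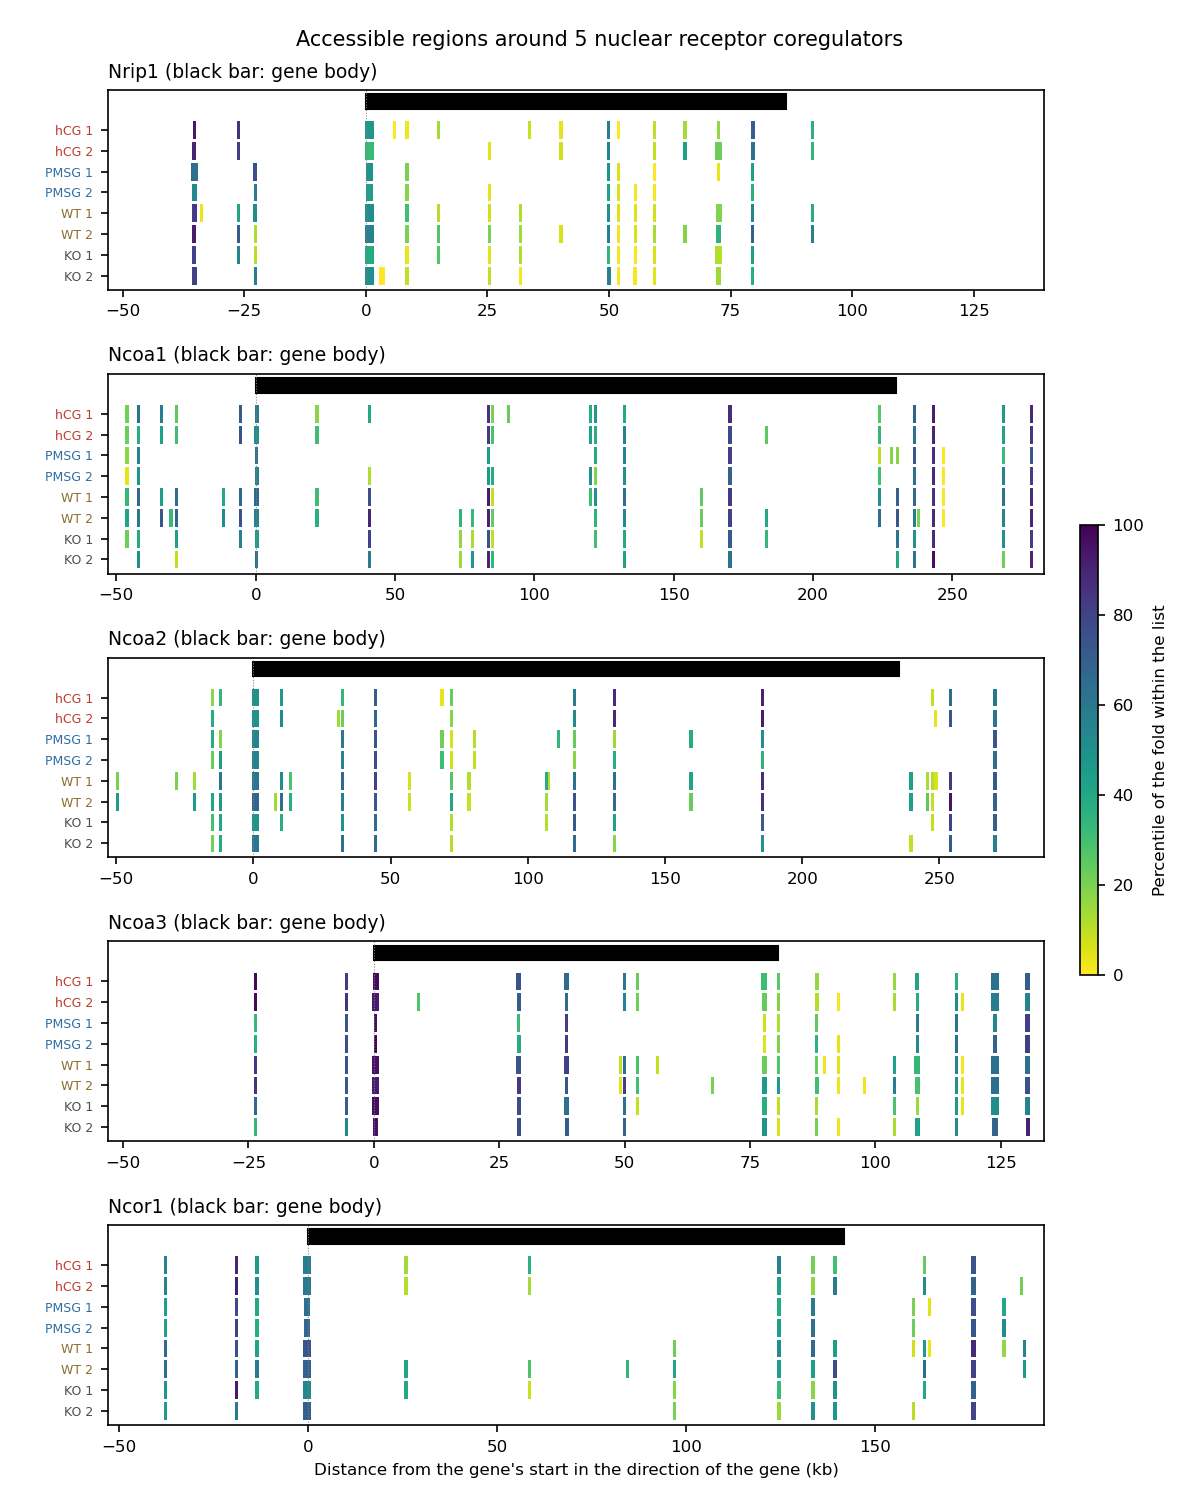
Accessible regions in the windows of the 5 genes, one row per library, against distance from the start in kb. A bar stands for a region held by that library, drawn at the region's centre with at least a fixed width, and its shade gives the percentile of the fold. Dark bars at the start of Ncoa3 appear in all 8 rows, and bars present in both hCG rows with none in the PMSG rows number 17.

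The LH experiment asks what an ovulatory dose of hCG changes in open chromatin. All 5 genes had regions that both hCG libraries held and no PMSG library did, called hCG-only here, and 4 of the 5 had regions with the reverse pattern, called PMSG-only. Of all genes, whose windows held fewer regions (a median of 7, against 18 here), 55.1% had an hCG-only and 36.6% a PMSG-only region. Of 95 regions in the windows, 17 were hCG-only, a share of 17.9% against 17.7% over all regions. The PMSG-only regions were 6, or 6.32%, against 10.4% over all regions, and 45 were held by all 4 libraries. Summed over the windows of all protein-coding genes the shares were 15.2% and 7.50%, so both shares of the 5 genes lay near those of gene windows in general. Nrip1 had 4 hCG-only regions and 1 PMSG-only of 18, Ncoa1 4 and 1 of 24, Ncoa2 2 and 1 of 19, Ncoa3 3 and 0 of 18, and Ncor1 4 and 3 of 16. When the 57992 best peaks of each list by q-value were used, so that all 4 lists were equally long, 12 of 87 regions were hCG-only (13.8%, against 15.6% over all regions) and 9 PMSG-only (10.3%, against 13.4%). By gene the hCG-only and PMSG-only counts were then 3 and 3 for Nrip1, 2 and 1 for Ncoa1, 2 and 1 for Ncoa2, 3 and 0 for Ncoa3, and 2 and 4 for Ncor1. With the best peaks taken by fold instead, 16 of 90 regions were hCG-only (17.8%, against 15.3% over all regions) and 8 PMSG-only (8.89%, against 13.3%). Nrip1 again had 3 and 3 and Ncor1 then had 4 and 3, so the count at Ncor1 depends on the column that ranks the peaks. No region was tested singly.

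Nrip1, the corepressor, had an hCG-only and a PMSG-only region close together upstream. At chr16:76399861-76400292, 26.2 kb upstream of the start, the fold was 13.3 and 12.8 in the hCG libraries (percentiles 86.1 and 82.0), with no interval in either PMSG library. At chr16:76396067-76396870, 22.6 kb upstream, the fold was 13.0 and 10.5 in the PMSG libraries (percentiles 75.3 and 58.1), with no interval in either hCG library. These were the highest in percentile of the hCG-only and of the PMSG-only regions of all 5 genes. The other 3 hCG-only regions of Nrip1 were weaker and lay in the gene body 40.1 and 65.6 kb from the start and 91.8 kb from it, beyond the end. Their percentiles in the hCG libraries ran from 3.69 to 42.9.

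Ncoa1, a coactivator, had 3 of its 4 hCG-only regions upstream. The nearest to the start, chr12:4482378-4482880 at 5.42 kb, had a fold of 10.8 and 11.8 in hCG replicates 1 and 2 and was the closest to a start of all 17. Those at 28.3 and 33.8 kb upstream had folds of 5.82 and 6.78 and of 9.11 and 7.94. The last lay in the gene body 22.0 kb from the start, with folds of 5.19 and 6.78. Its PMSG-only region lay in Cenpo, a gene for a centromere protein, and ranked at percentiles of 0.774 and 0.344, the lowest of the group-only regions of the LH experiment.

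Ncoa2 and Ncoa3, the other coactivators, had 5 hCG-only regions together, of which 3 were also held by all 4 PR libraries. Of these, the one at Ncoa2 254.0 kb from the start (in Prdm14, a regulator of germ cells) had a fold of 10.03 and 11.6 in the hCG libraries. The one in the gene body of Ncoa3 (chr2:166042383-166042810) had 9.41 and 9.23, and the third lay in Sulf2, a gene for a heparan sulfatase. The Ncoa2 region 10.4 kb into the gene had folds of 7.80 and 8.95. The remaining Ncoa3 regions, 52.5 kb from its start and, in Sulf2, 103.8 kb from it, had folds of 5.69 and 5.93 and of 4.99 and 4.98. The 1 PMSG-only region of Ncoa2, 80.7 kb into the gene, was held by no PR library and had folds of 5.23 and 5.10.

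Ncor1, the corepressor scaffold, had group-only regions of both kinds near the far end of the gene. In Ttc19, a gene for a mitochondrial assembly factor, lay 2 hCG-only regions, one 163.1 kb from the Ncor1 start and downstream of Ncor1 and one at 139.4 kb, where Ttc19 overlaps the Ncor1 body, and a downstream PMSG-only one (160.1 kb). The hCG-only region at 139.4 kb had folds of 6.33 and 9.69 in the hCG libraries, and the PMSG-only one 6.13 and 6.50 in the PMSG libraries. The other 2 hCG-only regions also lay in the gene body, 25.8 and 58.5 kb from the start. The other PMSG-only regions lay in the gene body at 124.1 kb and in Zswim7, a recombination gene, at 184.2 kb, with folds of 7.94 and 8.88 and of 8.08 and 9.60.

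**Figure D2:**
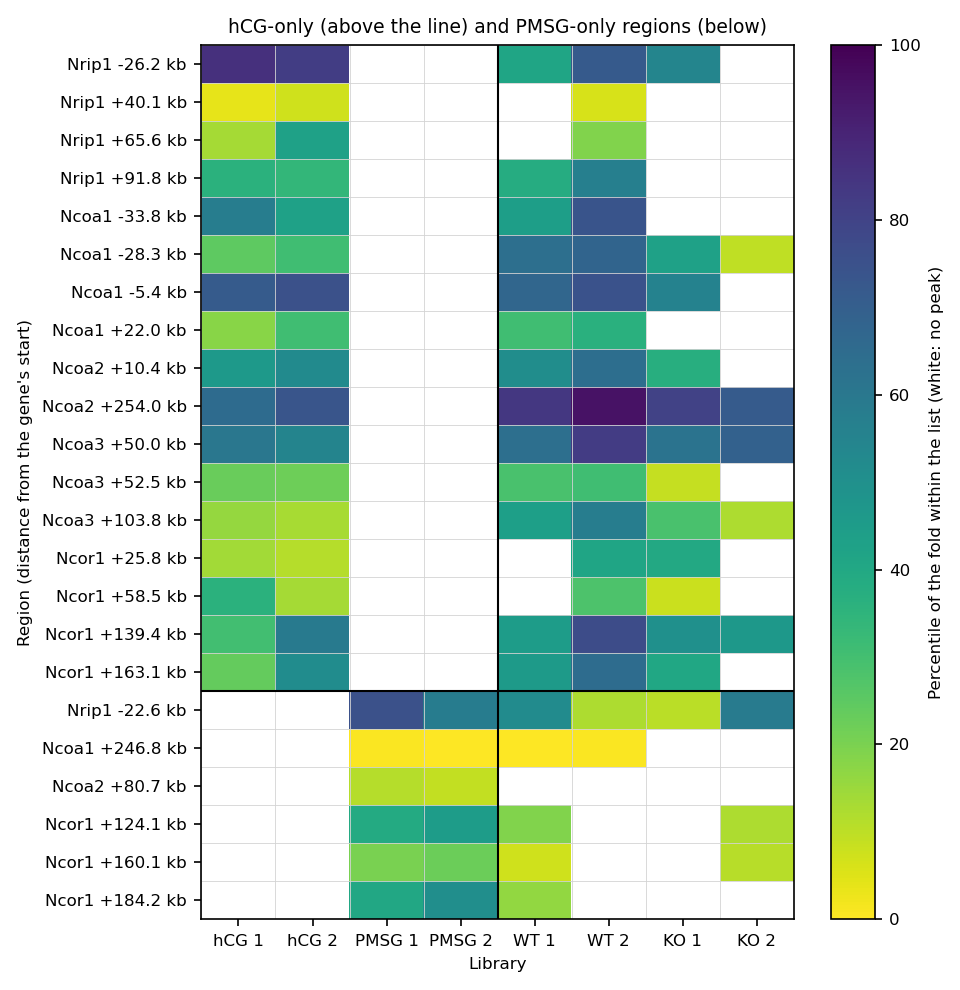
Percentile of the fold of the 17 hCG-only and 6 PMSG-only regions (rows, by distance from the gene's start) in the 8 libraries (columns); white cells had no interval. The hCG-only rows are filled in all cells of WT replicate 2 and in 5 of 17 of KO replicate 2.

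Regions held by all 4 LH libraries differed in rank. In lists of equal length, 42 regions of the 5 genes were held by all 4 libraries. Of these, 8 (19.0%) stood higher in both hCG libraries than in both PMSG libraries with group means at least 25 points apart, against 9.69% over all such regions. One, 2.38%, was higher in PMSG by the same rule, against 11.1% over all such regions. The threshold of 25 points was chosen after the data had been seen, and the split depends on it. Without overlap of the groups, Ncoa3 regions differed by -20.4, -21.2, -22.2, -24.2 and -21.8 points (hCG minus PMSG). A region in the Nrip1 body differed by 23.4 points. No share over all regions is given here for a lower threshold. The median difference was 2.69 points over the 42 regions and -2.98 points over all regions.

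The largest rise among them was upstream of Ncoa3. The region at chr2:165968823-165969285, 23.6 kb upstream of the start, stood at percentiles of 97.6 and 97.5 in the hCG libraries and of 33.1 and 36.6 in the PMSG libraries. Ncoa3 had another such region 28.9 kb into the gene, at 71.9 and 69.5 against 32.2 and 37.8. In both regions the hCG libraries lay close together, and that they stood above the PMSG libraries follows from the rule. The region at the Ncoa3 start did not share this, at 96.7 and 92.6 in hCG and 96.2 and 98.2 in PMSG.

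Ncoa2 had 3 regions that stood higher in hCG and 1 that stood lower. The region 131.7 kb into the gene (chr1:13242154-13242947) was at percentiles of 86.3 and 88.0 in hCG and of 14.6 and 36.3 in PMSG. The region 185.6 kb into the gene was at 89.1 and 91.7 against 50.5 and 34.1. The weakest of the 3, at 117.1 kb, was at 53.5 and 48.2 against 24.2 and 16.9. The region that stood lower (chr1:13341260-13342125, 32.5 kb into the gene) was at 25.4 and 16.7 in hCG and at 59.3 and 55.0 in PMSG. Both directions thus occurred inside the same gene body.

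The other 3 genes had 1 such region each. For Nrip1 it was chr16:76408350-76409794, 35.2 kb upstream and beyond the pair of group-only regions, at 92.6 and 89.4 in hCG and at 64.3 and 52.6 in PMSG. For Ncoa1 it lay 83.5 kb into the gene (chr12:4393347-4393837), at 83.4 and 82.0 against 44.7 and 45.1. For Ncor1 it lay at chr11:62332163-62332863, next to the PMSG-only region at 124.1 kb, at 50.7 and 39.2 against 13.9 and 17.8. That the groups did not overlap in these regions follows from the rule.

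**Figure D3:**
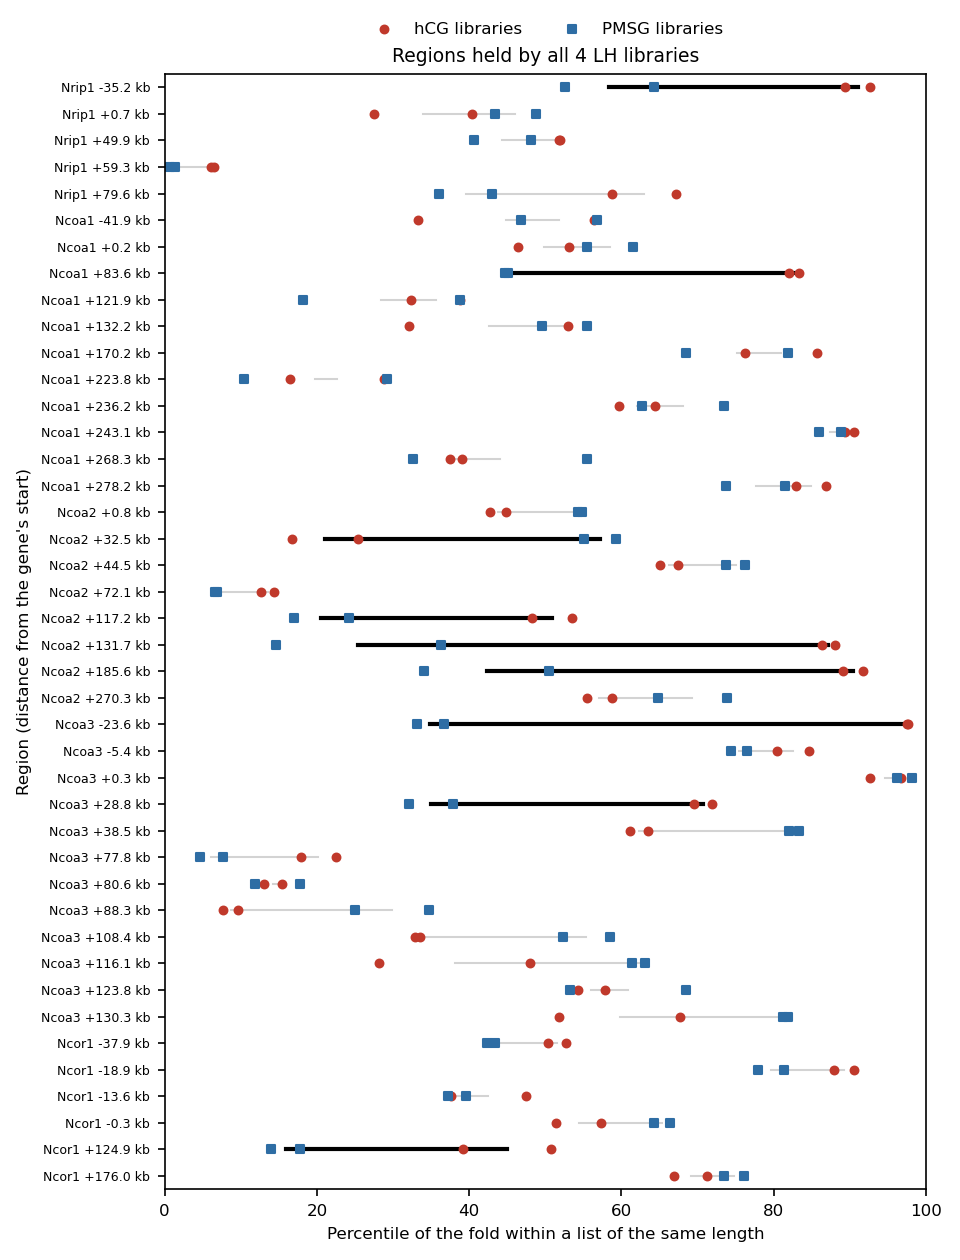
Percentile of the fold, in lists of equal length, of the 42 regions held by all 4 LH libraries (rows, by gene and distance from the start). Circles are hCG libraries and squares PMSG libraries; lines join the group means and are black where groups do not overlap and differ by at least 25 points, as for 8 regions higher in hCG and 1 higher in PMSG.

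Regions were also wider after hCG. Of the 45 regions held by all 4 libraries with all peaks, 32 (71.1%) were wider in both hCG libraries and 5 wider in both PMSG libraries, against 64.2% and 11.7% over all such regions. The median ratio of hCG to PMSG width was 1.29, and 1.17 over all regions. It was 1.55 for Ncoa3, where 10 of 12 regions were wider in hCG, and 1.07 for Ncoa1, where 6 of 12 were.

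The length covered by intervals in the 5 windows was 45.7 and 44.1 kb in the hCG libraries and 33.1 and 30.7 kb in the PMSG libraries. The means of 44.9 ± 1.17 and 31.9 ± 1.63 kb (SD, n = 2 each) differed by 13.0 kb, the exact two-sided permutation p being 0.333, the smallest possible. All 5 genes had more covered length in both hCG than in both PMSG libraries, as had 81.3% of all genes, and none had less, as had 6.96%. Ncoa3 showed the widest gap: 11.2 and 10.9 kb in hCG against 6.01 and 6.13 kb in PMSG. Nrip1 had 7.63 and 7.46 against 6.13 and 5.41 kb, Ncoa1 9.30 and 8.86 against 7.37 and 7.11 kb, Ncoa2 9.999 and 9.60 against 7.07 and 6.24 kb, and Ncor1 7.56 and 7.28 against 6.48 and 5.86 kb.

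The hCG lists cover more of the genome than the PMSG lists, and as a share of each library's covered length the genes parted. Ncoa3 took 2.88 and 2.85 per 10000 of the hCG libraries and 2.01 and 2.05 per 10000 of the PMSG libraries. Ncoa2 took 2.56 and 2.51 against 2.37 and 2.09 per 10000. These 2 genes stood higher in both hCG libraries, as did 35% of all genes. Ncor1 stood lower in both, at 1.94 and 1.91 against 2.17 and 1.96 per 10000, as did 39.2% of all genes, and the groups overlapped for Nrip1 and Ncoa1.

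**Figure D4:**
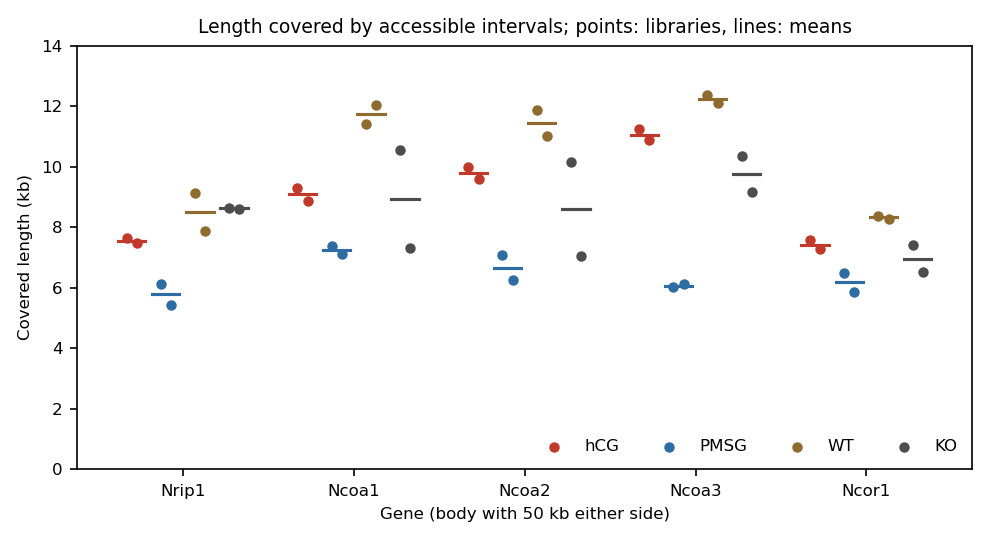
Length covered by accessible intervals in the window of each gene (kb), by group; points are libraries and lines group means. For Ncoa3 the hCG points lie near 11 kb and the PMSG points near 6 kb, while for Nrip1 the WT and KO points overlap.

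The PR experiment asks which accessible regions depend on the progesterone receptor after hCG. Its replicates were uneven, as read by how many of the LH group-only regions they held. Of the 17 hCG-only regions, WT replicates 1 and 2 held 13 and 17, and KO replicates 1 and 2 held 12 and 5. Over all hCG-only regions the shares were 79.9%, 91.3%, 63.4% and 44.7%. Of the 6 PMSG-only regions the 4 libraries held 5, 2, 1 and 3, in the same order, and over all PMSG-only regions 76.6%, 45.6%, 21.5% and 34.7%. KO replicate 2 thus held the fewest hCG-only regions, around these genes and over the genome, and also did in lists of equal length (4 of 12, and 49.4% over the genome). With all peaks WT replicate 1 held the most PMSG-only regions, but in lists of equal length KO replicate 2 held 6 of 9 and WT replicate 1 held 4, and over the genome they held 40.4% and 41.2%. The part of this unevenness in the results that follow was not tested.

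**Figure D5:**
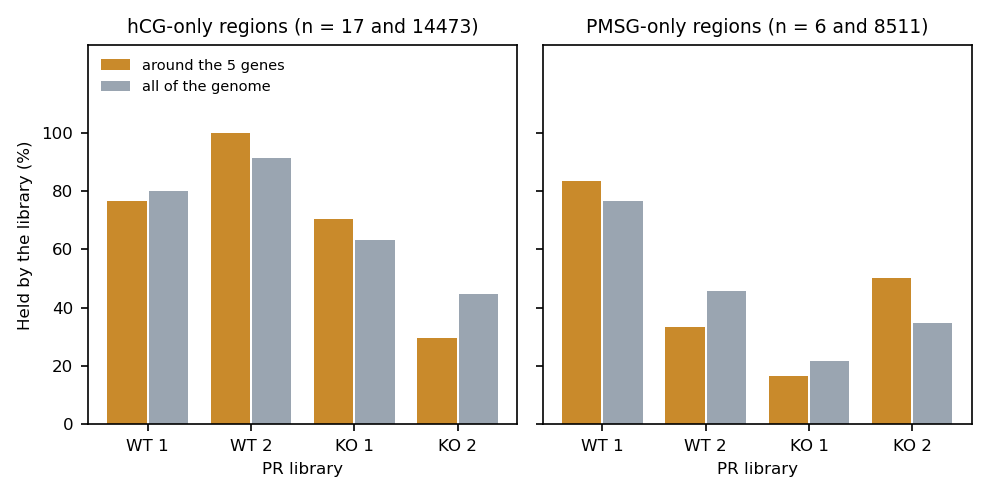
Share of hCG-only (left) and PMSG-only regions (right) of the LH experiment held by each PR library, for the 5 genes and for the genome. In both panels the replicates of a genotype differ, WT replicate 2 holding every hCG-only region around the 5 genes and KO replicate 2 holding 29.4% of them.

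All 5 genes had regions held by both WT libraries and neither KO library, as had 50.9% of all genes, and none had the reverse, as had 0.467%. The members' windows held a median of 22 regions and those of all genes 8. Of 114 regions in the windows, 57 were held by all 4 libraries and 15 were WT-only, 13.2% against 12.1% over all regions and 11.4% over the windows of all genes. No region was KO-only, against 0.0842% over all regions. Ncoa2 had 7 of the 15, Ncoa1 5, and Nrip1, Ncoa3 and Ncor1 1 each. WT lists are longer than KO lists, and with the 55654 best peaks of each list by q-value the counts changed: 2 of 86 regions were WT-only (2.33%, against 2.78% over all regions) and 5 were KO-only (5.81%, against 2.5%). A WT library held each of those 5 once all peaks were used.

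The 2 WT-only regions in these lists, whose best peaks were taken by q-value, were in Ncoa1 and upstream of Ncoa2. With the best peaks taken by fold, 6 of 93 regions were WT-only (6.45%, against 4.25% over all regions) and 5 KO-only (5.38%, against 4.16%). Ncoa1 then had 4 of the 6 WT-only regions, Nrip1 and Ncor1 1 each and Ncoa2 none. The Ncoa1 region (chr12:4253271-4253724, 223.7 kb into the gene) stood at percentiles of 49.3 and 64.1 in WT and was held by all 4 LH libraries. The Ncoa2 region (chr1:13423639-13423809, 49.5 kb upstream) stood at 20.2 and 45.1 in WT and was held by no LH library.

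Of the 15 WT-only regions, 9 (60.0%) were held by no LH library, against 35.3% of all WT-only regions. Of these, 6 belonged to Ncoa2: the one 49.5 kb upstream, one 21.6 kb upstream, those 13.4, 56.9 and 78.6 kb into the gene, and one 245.7 kb from the start, beyond the end. Apart from the one at 49.5 kb, their folds ran from 3.69 to 5.64 in WT replicate 1 and from 3.82 to 7.34 in WT replicate 2. The other 3 of the 9 were at Ncoa1, 11.5 kb upstream (percentiles of 39.9 and 52.1 in WT), in the Ncoa3 body 49.1 kb from the start (8.88 and 4.44), and in Zswim7 downstream of Ncor1 (54.8 and 45.7). The seventh Ncoa2 region, 159.5 kb into the gene, was held by PMSG replicate 1 as well. Another 3 were also hCG-only: one beyond the end of Nrip1 (91.8 kb from the start), and in Ncoa1 one 22.0 kb into the gene and one 33.8 kb upstream. The Nrip1 one had folds of 6.84 and 7.07 in hCG and 6.49 and 8.83 in WT, and no interval in the PMSG or KO libraries. The Ncoa1 one upstream had folds of 9.11 and 7.94 in hCG and 7.03 and 11.8 in WT. One region, in Cenpo, was WT-only and PMSG-only. The WT-only regions ranked low to middling, from a mean percentile of 0.505 to 58.9 in the WT libraries (median 32.7).

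The hCG-only and PMSG-only pair upstream of Nrip1 did not separate by genotype. Both WT libraries and KO replicate 1 held both members, and every PR library held the PMSG-only one. The hCG-only member had folds of 6.74 and 11.4 in WT and 8.92 in KO replicate 1, and none in KO replicate 2. The PMSG-only member had folds of 7.89 and 4.25 in WT and of 4.45 and 8.63 in KO. By percentile, WT replicate 1 and KO replicate 2 stood higher at the PMSG-only member, at 51.8 and 58.4. WT replicate 2 and KO replicate 1 stood there at 12.2 and 10.4. At the hCG-only member WT replicate 2 and KO replicate 1 stood higher, at 71.9 and 54.5, against 41.2 in WT replicate 1. The hCG-only region 5.42 kb upstream of Ncoa1 had folds of 9.99 and 12.0 in WT and 9.05 in KO replicate 1, and none in KO replicate 2.

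Among 50 regions held by all 4 PR libraries in lists of equal length, 1 was higher in WT by the same rule (2.00%, against 1.42% over all such regions) and 1 in KO (2.00%, against 1.14%). Both were at Ncoa3. The one higher in WT was the region 23.6 kb upstream that had risen most after hCG, at 77.3 and 77.2 in WT and 64.0 and 33.3 in KO. KO replicate 2, at 33.3, lay near the PMSG libraries there and KO replicate 1 nearer to WT. The one higher in KO lay 77.8 kb into the gene (chr2:166069940-166071046), at 7.70 and 18.7 in WT and 33.7 and 48.7 in KO.

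Width differed less than in the LH experiment. Of 57 regions held by all 4 PR libraries, 21 (36.8%) were wider in both WT and 4 in both KO libraries, against 34.7% and 5.9% over all such regions, with a median ratio of 1.07 against 1.08.

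The covered length of the 5 windows was 53.1 and 51.3 kb in WT and 47.1 and 38.6 kb in KO. The means of 52.2 ± 1.32 and 42.8 ± 6.01 kb (SD, n = 2 each) differed by 9.37 kb (exact two-sided permutation p = 0.333). Without KO replicate 2 the difference was 5.12 kb. For Ncoa1, Ncoa2, Ncoa3 and Ncor1 both WT libraries were above both KO libraries, as for 65.6% of all genes, and for none below, as for 0.915%. Nrip1 did not follow, at 9.14 and 7.86 kb in WT and 8.64 and 8.61 kb in KO. As a share of each library's covered length the difference of WT minus KO reversed, to -0.220 per 10000. No gene stood higher in both WT libraries by that share, as did 17.3% of all genes, and Nrip1 stood higher in both KO libraries, as did 36.4%, at 2.22 and 2.72 against 2.08 and 1.80 per 10000.

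The other coregulators were described by a list of 45 genes, all in the table: 25 coactivators and 20 corepressors. In the LH experiment 38 of the 45 had at least 1 hCG-only and 25 at least 1 PMSG-only region, against 55.1% and 36.6% of all genes, whose windows hold fewer regions (a median of 7, against 12). Per region the list was close to all genes: 89 of 568 regions were hCG-only (15.7%, against 15.2% summed over all genes' windows) and 42 PMSG-only (7.39%, against 7.50%). Regions in overlapping windows count once per gene here. Tbl1x and Tbl1xr1, subunits of the Ncor1 complex, had the most group-only regions of both kinds added together, with 5 hCG-only and 4 PMSG-only and with 5 and 2, each of 21. Lcor, a ligand-dependent corepressor, had 3 and 3 of 14. Smarca4, an ATPase of chromatin remodelling named here after its values were seen, had the same sum as Lcor and more hCG-only regions than these genes, with 6 and 0 of 15. In the PR experiment 34 of the 45 had at least 1 WT-only region, against 50.9% of all genes, and none had a KO-only one, against 0.467%. Per region 74 of 623 were WT-only, 11.9% against 11.4% summed over all genes' windows. Crebbp, a histone acetyltransferase, Ctbp2, a corepressor that Nrip1 binds, and Smarca2, another remodelling ATPase, had 5 WT-only regions each, of 16, 21 and 24, as had Tbl1x, of 25.

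Some genes had covered length that moved across the libraries much like that of a member. By Pearson's r over the 8 libraries of the share of covered length, among about as many genes for each member (15370 for Nrip1), the nearest were Lpcat3 (0.989), Pakap (0.987) and Bmp10 (0.986) for Ncoa3, and D7Ertd443e (0.981), Rxfp3 (0.978) and Bub3 (0.961) for Ncoa2. For Nrip1 they were Abcc1 (0.971), Gna11 (0.965) and Wdr45 (0.964), for Ncoa1 Trappc8 (0.957), Dmp1 (0.949) and Pds5b (0.941), and for Ncor1 Fbxo11 (0.964) and Epha7 (0.955). The 8 points fall into 4 groups of 2 and share any difference in sensitivity between libraries, so these are descriptions and carry no test.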

How the data were processed

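Accessibility was measured by ATAC-seq in 8 libraries. Alignment used Bowtie2 to mm10 and peaks came from MACS2, per the submitters' processing notes; versions, filters and a Tn5 shift are not given in the sources used here. The authors deposited 1 narrowPeak list of 10 columns per library. Peak names of the LH and PR lists differ in prefix, so processing may differ between experiments. Column 7 of the deposited lists was read as a fold enrichment (a linear ratio), column 8 as a −log10 p-value and column 9 as a −log10 q-value (at least 10 in every list), and column 5 as a score (10 times column 9), not used.

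Summits sharing an interval were joined, keeping the best fold and −log10 q. Intervals on chromosomes 1 to 19 and X were merged within an experiment at 1 bp overlap with Python 3.11.15, pandas 2.3.3 and scipy 1.17.1, tested on simulated data. Equal lists took the best peaks by column 9. Genes and promoters came from RefSeq tables (GRCm38.p6), which give no exons, so exonic and intronic places are not told apart. Covered length was compared by an exact permutation of 4 libraries. The rule was to report all group-only regions of the 5 genes; other coregulators named are the 3 with most group-only regions per experiment (ties by symbol), like genes the 3 with the highest r among genes with at least 5 regions (1 of them is not reported here), and neighbours those within 1 kb of a group-only region. Members, lists and rules were chosen with earlier results of these data known. Alternatives were another list length or −log10 q minimum (20), other flanks (10 kb or none), a minimum coverage, shares, the replicate block and each library left out.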

Additional observations from a re-analysis of the deposited data

How the results depend on the processing

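The 17 hCG-only and 6 PMSG-only regions were 25 and 8 where a library had to cover 50% of a region to hold it. With a −log10 q of at least 20 they were 15 and 7. The hCG-only count became 11 with a flank of 10 kb and 9 with gene bodies alone, and ran from 18 to 23 with 1 library left out. The 6 PMSG-only regions became 2 and 2 with these windows, and ran from 6 to 11 with 1 library left out, 10 without hCG replicate 1 and 11 without PMSG replicate 2. The 15 WT-only regions became 6 and 2 in lists of equal length by column 7 and by column 9, 8 with a flank of 10 kb and 7 with gene bodies alone, and ran from 17 (without KO replicate 2) to 28 (without KO replicate 1), being 23 and 25 without WT replicates 1 and 2. The KO-only count of 0 became 5 and 5 in these equal lists, 1 where a library had to cover 50% of a region to hold it, and ran from 0 to 3 with 1 library left out. Fewer libraries to satisfy and smaller windows follow from how these alternatives are built; for the equal lists the cause was not tested.

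The covered length in hCG minus PMSG stayed positive under all alternatives run, from 8.29 kb with gene bodies alone to 14.2 kb without PMSG replicate 1, and 0.952 per 10000 as a share. That in WT minus KO reversed to -1.35 kb in equal lists by column 7 (exact permutation p = 1) and to -0.220 per 10000 as a share (exact permutation p = 0.333); it was 0.698 kb in equal lists by column 9, 13.6 kb without KO replicate 1 and 5.12 kb without KO replicate 2. The cause was not tested. With the replicate block the differences were 13.0 and 9.37 kb, each with an exact permutation p of 0.5, the smallest possible with 2 pairs. Samples with the same number did not deviate together: the correlation of their deviations from the group means was 0.0431 in LH and -0.00433 in PR. Unknown depth limits every absence of a peak.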

Other observations

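Nrip1 lies in a long stretch without other protein-coding genes, so the description was extended, after the data had been seen, to the 1104 kb between its neighbours Samsn1 and Usp25. Of 51 regions there in the LH experiment, 9 were hCG-only and 9 PMSG-only, 17.6% each against 17.7% and 10.4% over all regions, and 17 were held by all 4 libraries. In lists of equal length 7 and 11 of 48 were, 14.6% and 22.9% against 15.6% and 13.4% over all regions. In the window within 50 kb of Nrip1 the counts were 4 and 1 with all peaks and 3 and 3 in lists of equal length. In the PR experiment 6 of 59 regions of the stretch were WT-only (10.2%, against 12.1%) and 0 KO-only (against 0.0842%), and in lists of equal length 0 and 2 of 45 (0% and 4.44%, against 2.78% and 2.5%).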
